A study of Mus musculus with 6 samples.

Results

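The 9 genes described here encode the regulatory proteins of the sarcomeric thin filament, and all 9 were among the 20632 genes of the deposited table. They were taken by name from the slow and fast isoform families. The slow members were *Tnnt1*, *Tnni1*, *Tnnc1* and *Tpm3* (4 genes), the fast members were *Tnnt3*, *Tnni2* and *Tnnc2* (3 genes), and *Tpm1* and *Tpm2* were the remaining 2. RNA was sequenced from whole hind limb muscle of unexercised male C57BL/6 mice aged 3 months, with 1 library per mouse and 3 mice per genotype. The muscles named for this tissue are the tibialis anterior, extensor digitorum longus, gastrocnemius, soleus and quadriceps, so each library mixed slow and fast fibres. Baf155 ΔMF mice (*MCK*-Cre; *Baf155* f/f, labelled Baf155 -/-) lack the SWI/SNF chromatin remodelling subunit Baf155 where the muscle creatine kinase promoter drives Cre, which is skeletal and cardiac myofibres. Baf155 WT mice carried the same floxed alleles (*Baf155* f/f) without Cre, so a Cre-only group was not part of the comparison. Other cell types of the muscle keep the gene, and in whole tissue fewer cells of a type cannot be told apart from less RNA per cell.

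A thin filament is an actin strand along which tropomyosin lies, with a troponin complex at regular intervals. Troponin C binds calcium, troponin I holds the filament inhibited at rest, and troponin T anchors the complex to tropomyosin, so that calcium release moves tropomyosin and opens actin to myosin. Slow and fast fibres draw each troponin subunit from a separate gene, and for this reason these transcripts are widely used to read the slow and fast fibre programmes of a muscle.

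Each sample title starts with a prefix (MS13, MS14 or MS15) that the labels leave unexplained. Baf155 WT mouse 1 and Baf155 ΔMF mice 1 and 2 carried MS13, Baf155 WT mice 2 and 3 carried MS15, and Baf155 ΔMF mouse 3 carried MS14. In the other 3 mice, prefix and genotype cannot be told apart. Below, the 3 values of a genotype always follow mice 1, 2 and 3 in this order, in TMM-normalized CPM, which are counts brought to a common library total. The libraries held from 8426022 to 12469335 counts, and 3 counts, used as the smallest level these depths can show, corresponded to 0.230 to 0.351 CPM, counting error only. *Smarcc1*, which encodes Baf155, was at 23.4, 19.5 and 17.0 CPM in the Baf155 WT mice and at 7.05, 6.54 and 7.72 CPM in the Baf155 ΔMF mice, with no overlap (log2 fold change -1.49, adjusted p = 0.00907 by edgeR's quasi-likelihood test). Its adjusted p was 0.0616, 0.0533 and 0.0678 without Baf155 WT mouse 2, Baf155 ΔMF mouse 1 and Baf155 ΔMF mouse 2 respectively, with log2 fold changes from -1.50 to -1.43. The defining myofibre transcripts *Acta1*, *Ckm*, *Des*, *Mb* and *Ttn* summed to between 97358 and 134388 CPM. The cardiac markers *Myh6*, *Nppa*, *Nppb*, *Tnni3*, *Tnnt2* and *Myl7* summed to at most 4.08 CPM in any mouse, with *Nppb* at 0 in every mouse.

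The genes of the slow and fast isoforms are dispersed over the mouse genome, and only the troponin I and T genes sit close together. On GRCm38 with the GENCODE M21 annotation, *Tnni2* (chr7:142441808-142444410, plus strand) and *Tnnt3* (chr7:142498836-142516009, plus strand) are 54425 bases apart, with *Lsp1* between them. *Tnnt1* (chr7:4504570-4516382, minus strand) lies 1922 bases from the cardiac gene *Tnni3* with no coding gene between, and *Tnni1* (chr1:135779434-135810989, plus strand) lies 25364 bases from the cardiac gene *Tnnt2* with *Lad1* between. *Tnnc1* (chr14:31208312-31211729, plus strand) overlaps *Nisch* on the opposite strand, and *Tnnc2* (chr2:164777161-164779967, minus strand) overlaps *Ube2c* on the opposite strand. *Tnnt3* overlaps *Prr33*, annotated as a noncoding gene, on the opposite strand. *Tpm3* lies at chr3:90072649-90100902 (plus strand), *Tpm1* at chr9:67022590-67049406 (minus strand) and *Tpm2* at chr4:43514711-43523765 (minus strand). *Tnnt3* has the most annotated transcripts of the 9 genes (27, of which 23 are coding), *Tpm1* has 21 and *Tnnc2* has 2. The deposited values are gene totals, so splice forms were not separated.

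Promoter sequence is shown for *Tnnc1*, *Tpm3*, *Tnnt1* and *Tpm1*, because 2 of them carry the binding motif of the TEAD factors, whose transcripts are described further on. The stretches of *Tnnt1* and *Tpm1* lie inside the annotated gene positions given above. The 250-base windows of these genes overlap annotated exons of the same gene. RefSeq start sites on GRCm38.p6 were given for 7 of the 9 members, all except *Tnnt3* and *Tnni2*. Both strands of the 250 bases before each start were searched for 5 motifs: the E-box CANNTG bound by myogenic factors such as MyoD, the MCAT motif CATTCC bound by TEAD factors, the TATA box TATAAA, the MEF2 site and the CArG box. The windows printed are those of *Tnnc1* (chr14:31208062-31208311, plus strand), of the upstream start of *Tpm3* up to 3 bases before it (chr3:90072401-90072648, plus strand), and 30 bases each from *Tnnt1* (chr7:4515976-4516005, minus strand) and *Tpm1* (chr9:67049254-67049283, minus strand). They are given 5′ to 3′ along the gene, and capitals mark an E-box in the first 2, the MCAT motif read on the other strand as GGAATG in *Tnnc1* and *Tpm1*, and the TATA box in *Tnnt1*.
Tnnc1: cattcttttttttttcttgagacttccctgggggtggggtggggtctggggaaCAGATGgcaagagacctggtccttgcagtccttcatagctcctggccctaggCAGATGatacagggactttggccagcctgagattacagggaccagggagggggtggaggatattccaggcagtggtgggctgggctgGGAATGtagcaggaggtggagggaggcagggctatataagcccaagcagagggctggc
Tpm3: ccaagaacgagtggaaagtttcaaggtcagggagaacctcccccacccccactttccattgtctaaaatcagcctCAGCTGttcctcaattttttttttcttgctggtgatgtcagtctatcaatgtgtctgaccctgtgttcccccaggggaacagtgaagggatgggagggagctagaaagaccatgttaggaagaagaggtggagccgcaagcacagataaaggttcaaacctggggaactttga
Tnnt1: TATAAAtccagggggtgcgtcactgtcctc
Tpm1: attggctgtcctaaGGAATGcggtcgcccc

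All 7 members with an entry had at least 1 E-box, a motif that 66.2% of 32851 promoters of this length also held. The MCAT motif lay from 58 to 53 bases before the start in *Tnnc1* and from 56 to 51 bases before it in *Tpm1*, and 12.6% of all promoters held it. The TATA box of *Tnnt1* lay from 30 to 25 bases before the start, and 12.4% of all promoters held these letters. The MEF2 site (2.92% of all promoters) and the CArG box (1.47%) did not occur in these windows of the 7 members. A match describes the letters only.

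The first question was which isoforms this muscle used, and in every mouse the fast troponins were far above the slow ones. Together the 9 genes took between 4.88% and 6.998% of all counts in a mouse. The 3 fast members alone took 2.95% to 4.31%, whereas the 4 slow members took 0.0261% to 0.0341%. To compare genes with each other, levels were divided by the annotated exon length, and on this scale *Tnnt3* was highest (mean of 6 mice, 11922 CPM per kilobase), followed by *Tnnc2* (9492) and *Tnni2* (5080). *Tpm1*, the main tropomyosin of fast fibres, was at 2711 CPM per kilobase, and *Tpm2*, the beta tropomyosin found in both fibre types, was at 1464. The slow members were at 57.9 (*Tnnc1*, which is also the troponin C of the heart), 32.0 (*Tnnt1*), 20.3 (*Tpm3*) and 13.1 CPM per kilobase (*Tnni1*). With the median length of the coding transcripts instead, a choice made after the data were seen, the fast troponins, *Tpm1* and *Tpm2* stayed above the 4 slow members, but *Tnni2* (11385) then stood above *Tnnc2* (10848), and *Tpm3* (108) became the highest slow member. The order of *Tnnc1*, *Tnnt1* and *Tpm3*, and that of *Tnni2* and *Tnnc2*, thus depended on the length used and cannot be read from these data. *Tnni1* was the lowest of the slow members with both lengths.

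**Figure D1:**
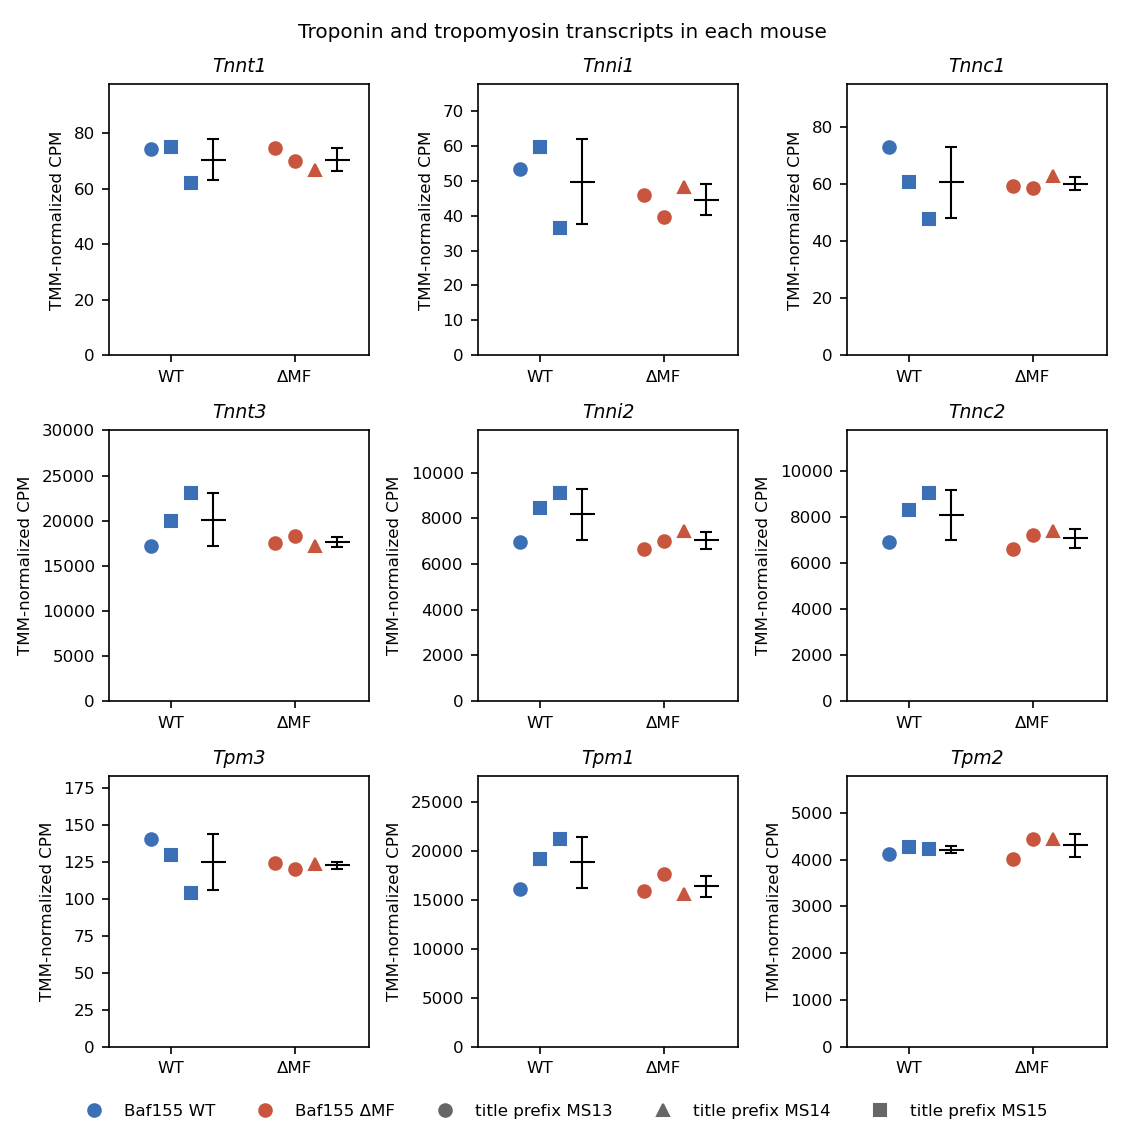
TMM-normalized CPM of the 9 genes (y axes, each from 0) in 3 Baf155 WT and 3 Baf155 ΔMF mice (x axes), with 1 point per mouse, the point shape giving the title prefix and the bar giving mean ± SD. The genotypes overlapped for every gene, the squares (MS15) of *Tnnt3*, *Tnni2*, *Tnnc2* and *Tpm1* stood above all other points, and all slow genes were lowest in 1 MS15 mouse.

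The second question was whether loss of Baf155 in myofibres changed these transcripts. No difference between genotypes was detected for any of the 9 genes. All 9 passed the filter on low counts, and 0 had an adjusted p under 0.05 by edgeR (adjusted p from 0.657 to 0.999), where 3 of 12116 genes tested did (0.0248%). Nor was any of the 9 (0 genes) at an unadjusted p under 0.05, a limit that 7.95% of all genes passed, and DESeq2 and limma-voom likewise gave 0 at both limits. The genotypes did not separate fully for any member, against 10.8% of all genes. The log2 fold changes (Baf155 ΔMF over Baf155 WT) were negative for 7 members and positive for 2, with a median of -0.16, where the median over all genes tested was -0.00095. With 3 mice against 3, an exact permutation test of a single value cannot give a p below 0.10, so the test across all genes is the one given for single members.

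Among the slow members, *Tnnt1*, the slow troponin T, was at 74.4, 75.1 and 62.1 CPM in the Baf155 WT mice and at 74.8, 69.9 and 66.9 CPM in the Baf155 ΔMF mice. The means were 70.5 ± 7.30 and 70.5 ± 4.02 CPM (SD, n = 3 each), and the 95% interval of the log2 fold change ran from -0.22 to 0.22. The ranges lay almost on top of each other, and this was the narrowest interval of the 9 genes. *Tnni1*, the slow troponin I, was at 53.3, 59.7 and 36.3 CPM in Baf155 WT and at 45.9, 39.6 and 48.3 CPM in Baf155 ΔMF muscle. Its Baf155 WT mice held both the highest and the lowest value, its log2 fold change was -0.16 (SE 0.16, adjusted p = 0.780 by edgeR), and its interval, from -0.52 to 0.19, was the widest of the 9. *Tnnc1*, the slow troponin C, was at 72.9, 60.7 and 47.7 CPM in Baf155 WT and at 59.0, 58.5 and 62.6 CPM in Baf155 ΔMF muscle. The Baf155 ΔMF values fell inside the Baf155 WT range, and the log2 fold change was -0.0096, with an interval from -0.31 to 0.29.

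*Tpm3*, the slow alpha tropomyosin, was at 141, 129 and 104 CPM in Baf155 WT and at 124, 120 and 123 CPM in Baf155 ΔMF muscle. The Baf155 ΔMF mice were again inside the Baf155 WT range, and the log2 fold change was -0.02 (interval -0.27 to 0.22). *Tpm3* also gives rise to non-muscle tropomyosins from an internal start, so its total holds transcripts of other cells, and 23.2% of its exonic 50-base words occur elsewhere, mostly in the copy *Tpm3-rs7*. Its deposited values were nevertheless whole numbers in every mouse.

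The fast members gave lower means in Baf155 ΔMF muscle by similar amounts, none of them past the test. *Tnnt3*, the fast troponin T, was at 17207, 20002 and 23094 CPM in Baf155 WT and at 17486, 18258 and 17184 CPM in Baf155 ΔMF muscle. Baf155 WT mice 2 and 3 were above all Baf155 ΔMF mice and Baf155 WT mouse 1 was among them, with a log2 fold change of -0.19 (SE 0.14, interval -0.50 to 0.12, adjusted p = 0.702 by edgeR). *Tnni2*, the fast troponin I, was at 6951, 8459 and 9124 CPM in Baf155 WT and at 6662, 6994 and 7443 CPM in Baf155 ΔMF muscle (log2 fold change -0.22, SE 0.13, interval -0.51 to 0.07, adjusted p = 0.657). This was the largest difference and the smallest p of the 9 genes (unadjusted p = 0.126 by edgeR). *Tnnc2*, the fast troponin C, was at 6940, 8303 and 9063 CPM in Baf155 WT and at 6629, 7211 and 7413 CPM in Baf155 ΔMF muscle (log2 fold change -0.19, SE 0.13, interval -0.48 to 0.09, adjusted p = 0.683). For *Tnnc2*, 47.9% of exonic 50-base words are shared with *Ube2c* on the other strand, and *Ube2c* was listed at 0.306 to 0.585 CPM, far below it. The paper names a stranded library kit, but whether the counting used strand is not given in the sources used here.

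*Tpm1* had the pattern of the fast troponins and *Tpm2* did not. *Tpm1* was at 16044, 19110 and 21236 CPM in Baf155 WT and at 15889, 17599 and 15616 CPM in Baf155 ΔMF muscle (log2 fold change -0.20, SE 0.14, interval -0.51 to 0.11, adjusted p = 0.691 by edgeR). *Tpm2* was at 4129, 4272 and 4231 CPM in Baf155 WT and at 4020, 4452 and 4440 CPM in Baf155 ΔMF muscle, with means of 4211 ± 73.5 and 4304 ± 246 CPM (SD, n = 3 each). It was the steadiest of the 9 transcripts, with a coefficient of variation of 3.99% over the 6 mice, and its log2 fold change was 0.03 (interval -0.20 to 0.27). Read as folds, the intervals of all 9 genes lay between 0.699, the lower limit of *Tnni1*, and 1.22, the upper limit of *Tnnc1*. Each gene has its own interval, such as 0.859 to 1.16 for *Tnnt1*. A change within the interval of a gene remains compatible with its values in these mice.

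**Figure D2:**
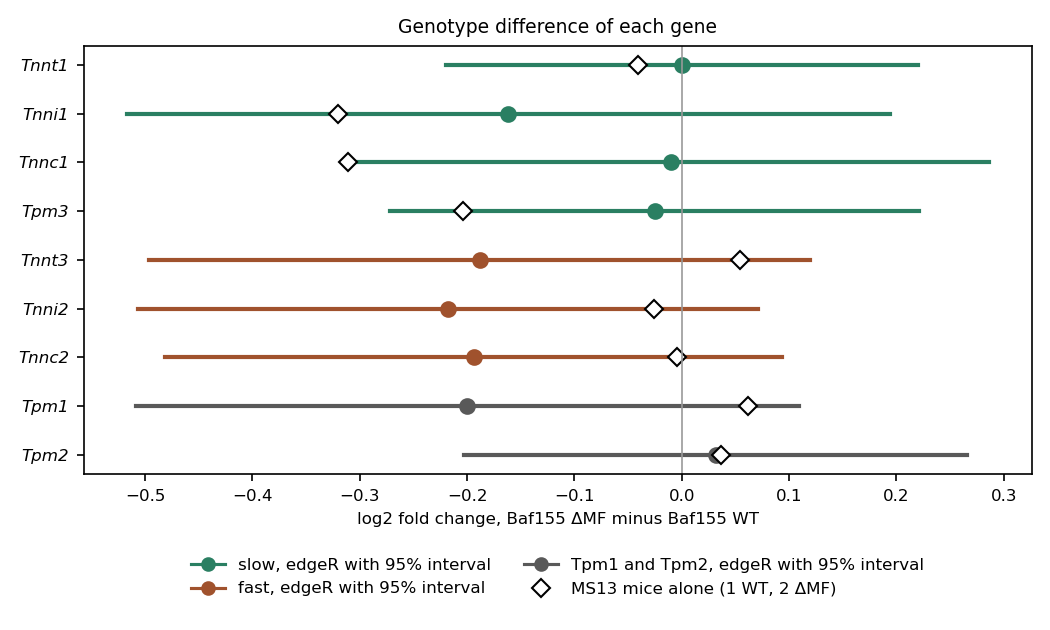
Log2 fold change of each gene (x axis, Baf155 ΔMF minus Baf155 WT) with its 95% interval from edgeR over all 6 mice (points and lines), and the value between the 3 MS13 mice alone (diamonds, no test). All 9 intervals cover 0, and the diamonds of *Tnnt3*, *Tnni2*, *Tnnc2* and *Tpm1* lie between -0.03 and 0.06.

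The spread of the fast members and *Tpm1* followed the title prefix. Baf155 WT mice 2 and 3, the MS15 mice, were both above the other 4 mice for *Tnnt3*, *Tnni2*, *Tnnc2* and *Tpm1*, as were 17.5% of all genes tested, which is a description without a test. The mean of the MS15 mice over that of the other 4 mice was 1.23 for *Tnnt3*, 1.25 for *Tnni2*, 1.23 for *Tnnc2* and 1.24 for *Tpm1*, against 0.998 for *Tpm2*. The slow members gave 0.959 (*Tnnt1*), 1.03 (*Tnni1*), 0.858 (*Tnnc1*) and 0.919 (*Tpm3*), and each of them was lowest in Baf155 WT mouse 3, the mouse in which the 3 fast members and *Tpm1* were highest.

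The same split shows in the genotype comparison. Between the MS13 mice alone, which are 1 Baf155 WT and 2 Baf155 ΔMF mice and allow no test, the log2 fold change was 0.05 for *Tnnt3*, -0.03 for *Tnni2*, -0.0043 for *Tnnc2*, 0.06 for *Tpm1* and 0.04 for *Tpm2*. In these mice the slow members also gave negative values, -0.04 (*Tnnt1*), -0.32 (*Tnni1*), -0.31 (*Tnnc1*) and -0.20 (*Tpm3*) on the log2 scale, all against 1 Baf155 WT mouse. Without both MS15 mice, a fit added after the data were seen, the fast log2 fold changes were 0.03 (*Tnnt3*), 0.02 (*Tnni2*) and 0.03 (*Tnnc2*), with an adjusted p of 0.999 in each case by edgeR. Without Baf155 WT mouse 1, when the remaining Baf155 WT mice are both MS15, the values were -0.29 (*Tnnt3*), -0.32 (*Tnni2*), -0.29 (*Tnnc2*) and -0.30 (*Tpm1*), and the adjusted p was 0.156, 0.0903, 0.123 and 0.141 respectively by edgeR, the lowest over the alternatives, whose adjusted p for these 4 genes otherwise reached 0.999. Both MS15 mice are Baf155 WT and held the highest values of the fast members. Leaving them out was therefore bound to lower the Baf155 WT mean. Without Baf155 WT mouse 2 alone the values were -0.19 (*Tnnt3*), -0.19 (*Tnni2*) and -0.17 (*Tnnc2*). Without Baf155 WT mouse 3 alone they were -0.08, -0.13 and -0.11. For these genes, fits that leave out mice cannot tell prefix from genotype.

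Counting noise was small beside this spread. For the fast members and *Tpm1*, the counts alone would give a coefficient of variation of 0.261% to 0.401%, while the 6 mice varied by 12.1% to 12.8%. For the slow members, which had 381 to 981 counts per mouse apart from *Tpm3*, counting alone would give 3.08% to 5.12% against an observed 7.47% (*Tnnt1*) to 18.3% (*Tnni1*). Of the slow genes, *Tnnt1* was the nearest to its counting noise.

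**Figure D3:**
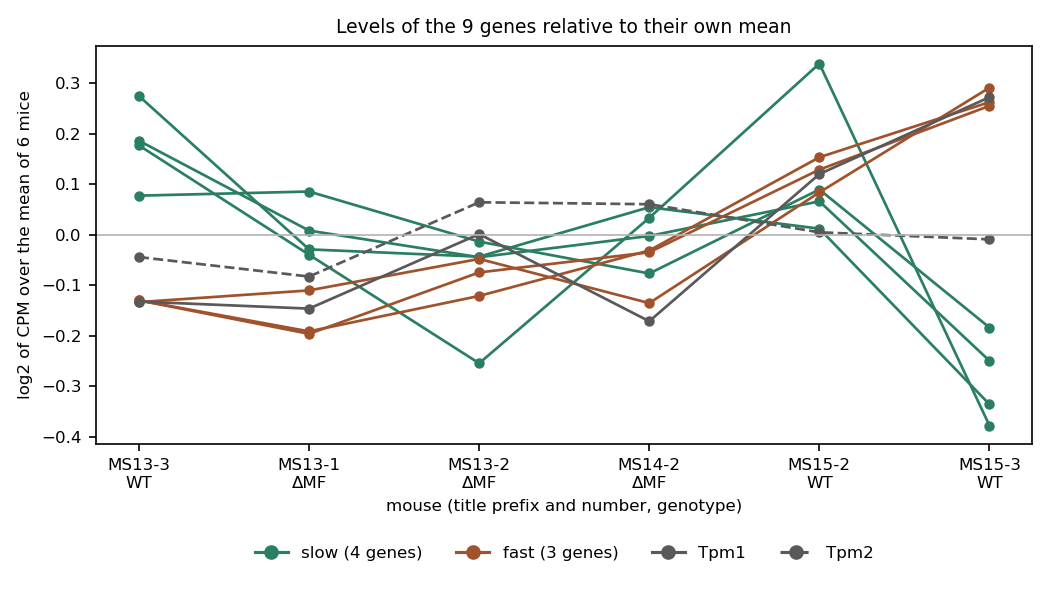
Log2 of the CPM of each gene over its own mean across the 6 mice (y axis), with mice ordered by title prefix (x axis) and lines joining the points of 1 gene. The fast genes and *Tpm1* run together and rise to the MS15 mice, the slow genes drop in 1 MS15 mouse, and *Tpm2* (dashed) stays near 0.

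Transcript length moved with the MS15 pattern over the whole table. Among genes with up to 1500 exonic bases (n = 660), 38.9% had both MS15 mice above the other 4, and among those with more than 6000 exonic bases (n = 4024) the share was 9.32%. The median log2 ratio of MS15 to the other mice was 0.21 in the first group and -0.10 in the second, and the median log2 fold change between genotypes was -0.12 and 0.07. Of genes with more than 1500 and up to 3000 exonic bases (n = 2398), 27.2% had both MS15 mice above, with a median log2 ratio of 0.11. *Tnnc2* (800 exonic bases) and *Tnni2* (1497) fall in the shortest group, and *Tnnt3* (1583) in that of 1500 to 3000 bases. The long sarcomeric transcripts *Ttn* and *Neb* were lower in the MS15 mice, at 0.558 and 0.656 of the other 4. *Tnnc1* (1041 exonic bases) and *Tnnt1* (2204) are also short but were not above in both MS15 mice. *Tpm1* has 6485 exonic bases over all its transcripts, with a median coding transcript of 1642, and was above in both MS15 mice although few genes of its exon length were. The part of transcript length in the values of the fast members was not tested.

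Ratios within a library do not depend on its scaling, so slow-to-fast ratios were formed for each troponin subunit from the counts of each mouse. A trend with transcript length need not cancel in a ratio of genes of unlike length, such as *Tnni1* (3600 exonic bases) and *Tnni2* (1497). The part of length in these ratios was not tested. *Tnnt1* was at 0.433%, 0.375% and 0.269% of *Tnnt3* in the Baf155 WT mice and at 0.428%, 0.383% and 0.389% in the Baf155 ΔMF mice. *Tnni1* was at 0.767%, 0.705% and 0.398% of *Tnni2* in Baf155 WT and at 0.689%, 0.566% and 0.649% in Baf155 ΔMF muscle. *Tnnc1* was at 1.05%, 0.732% and 0.527% of *Tnnc2* in Baf155 WT and at 0.891%, 0.811% and 0.844% in Baf155 ΔMF muscle. In all 3 pairs the Baf155 WT mice held the highest and the lowest ratio, and the Baf155 ΔMF mice lay between them.

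The mean log2 ratio was higher in Baf155 ΔMF muscle by 0.18 for troponin T, 0.08 for troponin I and 0.20 for troponin C, and the p of a two-sided exact permutation test (20 ways to assign the mice) was 0.5, 1 and 0.7, where 0.1 is the smallest this design allows. None of the 3 differences exceeded the SD of the log2 ratio in Baf155 WT muscle, which was 0.35, 0.52 and 0.50. The SD was smaller in Baf155 ΔMF muscle, at 0.09, 0.15 and 0.07, and the differences for troponin T and troponin C exceeded it. Each difference turned negative without Baf155 WT mouse 3 (-0.012, -0.22 and -0.05) and between the MS13 mice alone (-0.10, -0.30 and -0.31). The 4 slow members summed to 1.097%, 0.884% and 0.606% of the 3 fast members in Baf155 WT and to 0.988%, 0.886% and 0.940% in Baf155 ΔMF muscle.

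**Figure D4:**
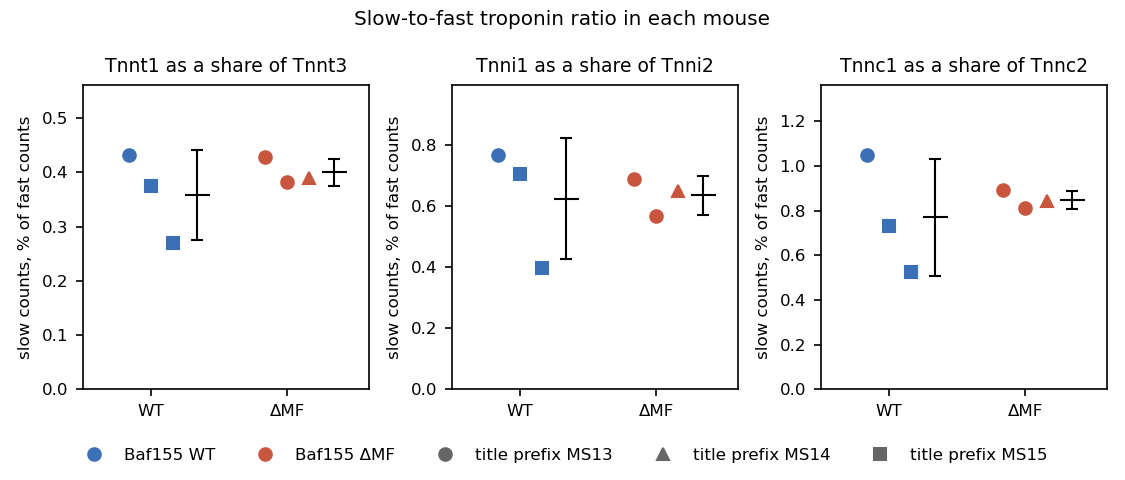
Counts of the slow troponin gene as a percentage of those of its fast counterpart (y axes, each from 0) in each mouse (points, shape giving the title prefix), with mean ± SD by genotype. Baf155 ΔMF mice lie within the range of Baf155 WT mice in all 3 pairs.

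*Tnni2* and *Tnnc2* were at nearly fixed proportions to each other, and so were *Tnnt3* and *Tpm1*. Ratios of *Tnnt3* to the other fast troponins were not formed. *Tnni2* counts were 97.0% to 102% of *Tnnc2* counts over the 6 mice, and *Tnnt3* counts were 104% to 110% of *Tpm1* counts. *Tpm3* was at 0.697%, 0.553% and 0.408% of the sum of *Tpm1* and *Tpm2* in Baf155 WT and at 0.624%, 0.543% and 0.615% in Baf155 ΔMF muscle, which overlap. *Tpm2* was at 25.7%, 22.4% and 19.9% of *Tpm1* in Baf155 WT mice and at 25.3%, 25.3% and 28.4% in Baf155 ΔMF mice, a difference of 0.22 in the mean log2 ratio that was -0.02 between the MS13 mice.

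The cardiac and non-muscle relatives were low or had like means in both genotypes. *Tnnt2*, the cardiac troponin T, was at 1.06 ± 0.561 CPM in Baf155 WT and at 1.13 ± 0.177 CPM in Baf155 ΔMF muscle (SD, n = 3 each). *Tnni3*, the cardiac troponin I, was at 0.0765 to 0.389 CPM and did not pass the filter. *Tpm4*, a tropomyosin of non-muscle and regenerating cells, was at 64.1 ± 6.55 and 64.1 ± 5.79 CPM. The summed smooth muscle markers, which could carry *Tpm1* and *Tpm2*, were at 165 to 185 CPM in Baf155 WT and at 161 to 202 CPM in Baf155 ΔMF mice, far below these tropomyosins. Macrophage markers (5 of 5 lower in Baf155 ΔMF, median log2 fold change -0.88, and -0.15 between the MS13 mice) summed to 54.4 to 140 CPM in Baf155 WT and at 48.5 to 74.1 CPM in Baf155 ΔMF mice. Blood markers (4 of 4 lower, median -0.75, and -0.79 between the MS13 mice) summed to 524 to 1029 and to 301 to 658 CPM. Adipocyte markers (4 of 4 lower, median -0.46, and -0.12 between the MS13 mice) summed to 32.3 to 65.6 and to 28.2 to 42.1 CPM, and endothelial markers (4 of 4 higher, median 0.31, and 0.04 between the MS13 mice) to 192 to 249 and to 251 to 273 CPM. Fibroblast and fibro-adipogenic markers were mixed (3 of 5 lower and 2 higher, median -0.26, and -0.01 between the MS13 mice). They summed to 1575 to 1954 CPM in Baf155 WT and to 1415 to 2148 CPM in Baf155 ΔMF mice. The part of these cell types in the values of the 9 genes was not tested.

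Of the other thin filament genes, which encode actins, the filament ruler nebulin and the proteins that cap and stabilize filament ends, 15 of 16 were tested and 0 had an adjusted p under 0.05 by edgeR. At an unadjusted p under 0.05, 0 were higher and 2 were lower in Baf155 ΔMF muscle, against 3.35% and 4.6% of all genes. *Actc1*, the cardiac and developmental alpha actin, had the largest difference, at 55.4, 42.7 and 104 CPM in Baf155 WT and at 34.8, 30.3 and 43.9 CPM in Baf155 ΔMF muscle (log2 fold change -0.89, adjusted p = 0.601 by edgeR). Over the alternatives its adjusted p ran from 0.0268, without Baf155 WT mouse 1, to 0.992. *Neb* was at 16495, 11141 and 10103 CPM in Baf155 WT and at 17906, 16515 and 13816 CPM in Baf155 ΔMF muscle (log2 fold change 0.35, adjusted p = 0.630), the reverse of the fast troponins in the MS15 mice, and between the MS13 mice it was 0.06. *Lmod2*, a filament nucleator, gave 0.25 and *Nrap*, a thin filament assembly protein, gave 0.29, with 0.622 as the adjusted p of both. Without Baf155 WT mouse 1 the adjusted p was 0.0134 for *Neb*, 0.0187 for *Lmod2* and 0.0101 for *Nrap*, and each reached 0.999 without both MS15 mice, all by edgeR.

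The other slow fibre genes (12 tested) and the other fast fibre genes (12 tested) also had 0 genes past an adjusted p of 0.05 by edgeR, with 1 gene in each list higher at an unadjusted p under 0.05, against 3.35% of all genes. The median log2 fold change was 0.16 for the slow list and -0.08 for the fast list, where all genes had -0.00095, and between the MS13 mice the medians were 0.04 and 0.02. In the slow list, *Mybpc1*, the slow myosin-binding protein C, and *Mb*, myoglobin, were higher in all Baf155 ΔMF mice than in all Baf155 WT mice (log2 fold change 0.24 for both, adjusted p = 0.622 by edgeR), as was the low transcript *Myh7b* (0.67, adjusted p = 0.622), and in all 3 of 12 genes separated in this direction against 5.2% of all genes. *Myl6b* gave -0.31. In the fast list, *Myh1*, the myosin heavy chain of type 2X fibres, was at 5731, 4034 and 4810 CPM in Baf155 WT and at 7683, 6341 and 6466 CPM in Baf155 ΔMF muscle (0.49, adjusted p = 0.601, and from 0.00789 without Baf155 WT mouse 1 to 0.999 over the alternatives). *Myh1* thus ran opposite to the fast troponins, whereas *Pvalb*, the calcium buffer of fast fibres, gave -0.25 (adjusted p = 0.635, and 0.0441 without Baf155 WT mouse 1), *Mybpc2* -0.13 and *Myl1* -0.12.

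**Figure D5:**
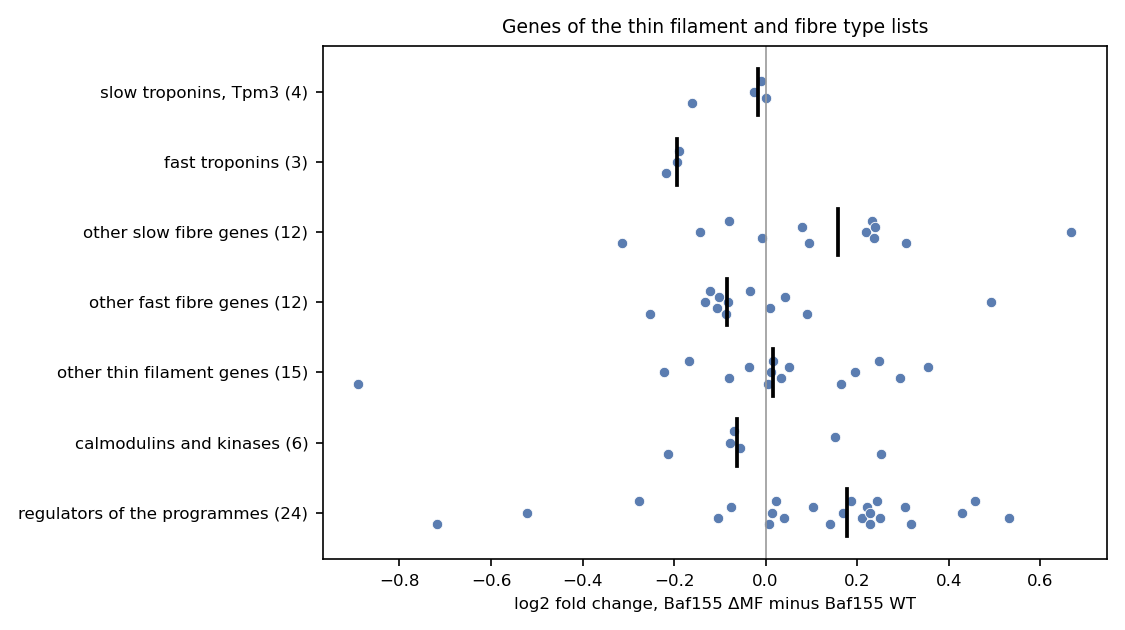
Log2 fold change between genotypes (x axis, Baf155 ΔMF minus Baf155 WT, edgeR) of the genes in each list (1 point per tested gene, number tested in parentheses), with the median as a black bar. The fast troponins lie together near -0.19 and *Tnnt1*, *Tnnc1* and *Tpm3* near 0 with *Tnni1* at -0.16, and no gene of the lists shown had an adjusted p under 0.05.

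Of 24 regulators of the slow and fast programmes, 19 had positive and 5 negative log2 fold changes, with a median of 0.18 that was 0.04 between the MS13 mice, and 0 had an adjusted p under 0.05 by edgeR (4 were higher and 2 lower at an unadjusted p under 0.05, against 3.35% and 4.6% of all genes). *Rcan1*, a feedback inhibitor of calcineurin that is itself switched on by calcineurin and NFAT, was at 136, 150 and 138 CPM in Baf155 WT and at 69.0, 98.7 and 89.9 CPM in Baf155 ΔMF muscle, with no overlap (as for 5.57% of all genes in this direction) and a log2 fold change of -0.72 (SE 0.12, adjusted p = 0.173). Its adjusted p over the alternatives ran from 0.000177 with DESeq2 to 0.542, and was 0.0197 without the filter on low counts and 0.00238 without Baf155 WT mouse 1, and the value between the MS13 mice was -0.69. *Tead1*, whose family binds the MCAT motif shown above for *Tnnc1* and *Tpm1*, was at 221, 140 and 112 CPM in Baf155 WT and at 261, 226 and 197 CPM in Baf155 ΔMF muscle (0.53, adjusted p = 0.601), with 0.13 between the MS13 mice. The log2 fold changes of *Tnnc1* and *Tpm1* were -0.0096 and -0.20, and a link to *Tead1* was not tested. *Tead4* gave 0.30 (adjusted p = 0.622) and *Mef2c* 0.24 (adjusted p = 0.611), both without overlap between genotypes, which makes 2 of 24 regulators in this direction against 5.2% of all genes. Without Baf155 WT mouse 1 the adjusted p was 0.00124 for *Tead1* and 0.0492 for *Mef2c* by edgeR.

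Calmodulins and kinases that act beside or on troponin (6 genes tested) had 0 genes past either limit by edgeR. *Dapk3*, a kinase, was higher in all Baf155 ΔMF mice than in all Baf155 WT mice (0.25, adjusted p = 0.622 by edgeR), against 5.2% of all genes, while *Calm3*, a calmodulin gene, gave -0.08 and *Prkcq*, a kinase, gave 0.15.

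The genes whose levels ran most like these transcripts over the 6 mice were found by Pearson's r of log2 CPM, among 7710 and 7711 genes respectively of mean CPM of at least 10. These r values describe 6 libraries that share depth and composition, and carry no test. For the mean of the 4 slow members, the highest were *Rbm19* (r = 0.993), *Gaa* (0.988), *Skiv2l* (0.969), *Enah* (0.968), *Pdcl* (0.967), *Pitpnm2* (0.960), *Fgfrl1* (0.954) and *Aph1a* (0.953). For the mean of the 3 fast members, they were *Tmem126a* (r = 0.994), *Cacnb1* (0.992), *Cct6a* (0.991), *Chmp4b* (0.987), *Rps27l* (0.987), *Ndufaf5* (0.987), *Dnajc15* (0.986) and *Ccdc107* (0.984). *Tpm1* had r = 0.941 with the fast mean, at rank 167 of 7711 genes, *Tpm2* had 0.170, and the slow members had -0.73 to -0.27.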

How the data were processed

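RNA-seq was made from 6 mice, and the authors deposited expected counts per gene, estimated without normalization and listed by symbol. The submitters' processing notes name CASAVA 1.8.2, cutadapt 1.10, Bowtie2 2.2.7, TopHat2 2.1.1, RSEM 1.2.30, limma, and builds mm10 and GRCm38. The paper names a stranded library kit. The annotation and the strand setting of the counting are not given in the sources used here. A further column holding the sum over samples was not used.

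Expected counts were rounded and compared with the quasi-likelihood test of edgeR 4.0.16 in R 4.3.3 (filterByExpr with minimum count 10 and total 15, TMM, no covariate), which kept 12116 genes. Differences are Baf155 ΔMF minus Baf155 WT, with Benjamini-Hochberg adjustment over all genes tested and a limit of 0.05. For ratios an exact permutation test, two-sided, was run in SciPy 1.17.1. The script was tested on simulated data. The members and lists were chosen with earlier results of these data known. All members were described, and from each list up to 4 genes that did not overlap between genotypes or had the largest log2 fold change were named. Alternatives were DESeq2 1.42.0, limma-voom 3.58.1, other scalings and filters, a robust fit, the title prefix as covariate, and leaving out each mouse. The labels do not say that mice came from separate litters, and p-values measure the spread between these mice only. A gene that the naming rule selected is not reported here.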

Additional observations from a re-analysis of the deposited data

How the results depend on the processing

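None of the 9 members passed an adjusted p of 0.05 under any of the 16 alternatives run. The number of genes past this limit, 3 in all, was 17 without the filter on low counts, 16 with the title prefix as a covariate, 22 with DESeq2, 5 with limma-voom, 16 without both MS15 mice (an alternative chosen after seeing the data), and 0 to 955 when each mouse was left out. It was 955 without Baf155 WT mouse 1, 7 without Baf155 WT mouse 3 and 1 without Baf155 ΔMF mouse 1. By edgeR, the counts of 0 came without Baf155 WT mouse 2 and without Baf155 ΔMF mouse 2, with 451 and 568 genes at an unadjusted p under 0.05. At an unadjusted p under 0.05 were 4 members (*Tnnt3*, *Tnni2*, *Tnnc2* and *Tpm1*) without Baf155 WT mouse 1, against 23.8% of all genes in that fit. There was 1 member with the prefix as a covariate (*Tnnc1*, against 616 of 12116 genes), without both MS15 mice (*Tnnc1*, against 2.93%) and without Baf155 WT mouse 3 (*Tnni1*, against 3.69%).

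Small log2 fold changes turned. *Tnnt1* was -0.0139 with upper-quartile factors, -0.0621 with library size only, -5.95e-05 without the filter, -0.00208 with at least 10 counts in every mouse, -0.0407 with the prefix, -0.0787 without both MS15 mice and -0.0406 in MS13. *Tnnc1* was 0.0109 with limma-voom, and *Tpm2* was -0.0302 with library size only. With the prefix as a covariate, *Tnnt3* was 0.0547, *Tpm1* 0.0617, *Tnnt2* -0.574, *Lmod2* -0.0285, *Myl1* 0.0357, *Pvalb* 0.0616 and *Calm3* 0.108. This fit takes the genotype difference from the MS13 mice only, which are 1 Baf155 WT and 2 Baf155 ΔMF mice. The values in MS13, 0.0547 for *Tnnt3* and 0.0617 for *Tpm1*, are therefore not a separate result. Without both MS15 mice, *Tnnt3* was 0.0344, *Tnni2* 0.0152, *Tnnc2* 0.0280, *Tpm1* 0.0273, *Tnnt2* -0.549, *Neb* -0.0386, *Lmod2* -0.0176, *Nrap* -0.0180, *Myl1* 0.0421, *Pvalb* 0.0492, *Calm3* 0.153 and *Prkcq* -0.0254. The log2 ratios differed by -0.0957 (troponin T), -0.298 (troponin I) and -0.305 (troponin C) in MS13.

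Leaving out each mouse gave -0.0839 to 0.0511 for *Tnnt1*, -0.154 to 0.144 for *Tnnc1*, -0.140 to 0.0703 for *Tpm3*, -0.204 to 0.524 for *Tnnt2*, -0.0710 to 0.0841 for *Tpm4* and -0.180 to 0.0114 for *Calm3*. The ratio differences ran from -0.0120 to 0.331 (troponin T), -0.218 to 0.255 (troponin I), -0.0479 to 0.450 (troponin C) and -0.0714 to 0.357 (summed slow to fast), lowest without Baf155 WT mouse 3 and highest without Baf155 WT mouse 1. The cause was not tested.

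No paired analysis was possible because the replicate numbers only follow the order of the samples and the labels pair no mice.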
